A study of Arabidopsis thaliana with 6 samples.

Results

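The 2 replicate 1 libraries of Arabidopsis thaliana ahl13-1 seedlings, 1 sprayed with Pst hrcC and 1 control, were set against the 4 libraries of replicates 2 and 3, which hold both treatments as well. They are 2 of the 6 libraries of the series, and were picked by their replicate number after genes of the circadian clock had been seen to differ in them. The line carries the insertion SALK_014014 in AHL13, a protein of the AT-hook family that binds AT-rich DNA, and all 6 libraries share this genotype. Whole seedlings aged 14 days, raised in long days at 23 °C on MS medium without sugar, had either received a spray of Pst hrcC (OD600 0.002) 24 hours before (3 libraries) or were controls (3 libraries). Pst hrcC is a Pseudomonas syringae strain that lacks a working type III secretion system, and what the controls received is not stated. No wild type is among these libraries, and the labels do not say whether replicates were grown separately, so the p-values cover the spread among these libraries, which may be technical.

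The plant circadian clock is a loop of transcriptional repressors. Genes for the MYB-type factors CCA1 and LHY peak around dawn, the pseudo-response regulators follow one another through the day, and TOC1 and the evening complex of ELF3, ELF4 and LUX peak around dusk. Through sites such as the evening element and through light signalling, the loop gives many genes of photosynthesis, starch, growth and cold tolerance a daily rhythm. The labels give no harvest time. The time of day at which each replicate was taken was therefore not tested, and whatever else the replicate 1 libraries share cannot be told apart from their number.

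Levels are FPKM (fragments mapped to a gene, scaled to its transcript length and to the depth of the library). The 2 replicate 1 values are given as Pst hrcC and control, and the other 4 as Pst hrcC replicates 2 and 3 and control replicates 2 and 3. Differences are replicate 1 minus replicates 2 and 3, fitted with limma on log2(FPKM + 1) with treatment as a term, a scale that understates the change of genes with low levels. A gene was called at a Benjamini-Hochberg adjusted p under 0.05 over the 16823 nuclear genes that averaged 1 FPKM or more. In whole seedlings, fewer cells of a type and less RNA per cell cannot be told apart.

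AHL13 (AT4G17950), the gene with the insertion, stood at 1.98 and 2.32 FPKM in the replicate 1 libraries, against 2.43, 2.08, 2.17 and 2.47 FPKM in the other 4, with no wild type here to set these against. Depth did not follow the replicate number. With control replicate 1 set to 1, the relative depth read from the smallest values was 4.29 in Pst hrcC replicate 1. It was 3.36, 0.783, 4.55 and 2.46 in the other 4 libraries. Genes shorter than 300 bases took 30.3% and 62.5% of the summed FPKM in the replicate 1 libraries, and 67.7%, 56.0%, 23.2% and 69.0% in the other 4. The 19 root markers summed to 287 and 286 FPKM in the replicate 1 libraries, against 306, 436, 234 and 252 FPKM in the other 4. The 17 shoot markers summed to 491 and 397 FPKM in the replicate 1 libraries, against 353, 353, 388 and 431 FPKM in the other 4. For both sums the groups overlapped, and none of 14 tested root markers was called. The sum of 13 seed-storage markers was at most 1.18 FPKM in any library.

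The clock genes themselves, on which the choice of libraries rested, are a description. Of 13 tested genes of the morning list, 8 were higher in replicate 1 and 1 was lower, where 4.33% and 4.07% of all genes tested were higher and lower. Of 10 genes of the evening list none was higher and 9 were lower. CCA1 (AT2G46830), a repressor of evening genes, stood at 15.98 and 14.5 FPKM in the replicate 1 libraries, against 0.166, 0.205, 0.233 and 0.162 FPKM in the other 4. LHY, its partner, stood at 10.3 and 8.697 FPKM in the replicate 1 libraries, against 0.110, 0.362, 0.214 and 0.187 FPKM in the other 4, and RVE8, an activator from the same MYB family, at 5.95 and 3.96 FPKM in the replicate 1 libraries, against 0.0706, 0.197, 0.132 and 0.188 FPKM in the other 4. The 3 genes were near 0 outside replicate 1, and neither treatment overlapped between the groups. LNK1, LNK2, LNK3 and LNK4, co-activators that bind RVE8, differed by 1.95, 3.38, 3.13 and 3.02 on the log2 scale, and RVE1, which ties the clock to auxin synthesis, by 1.64.

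On the evening side TOC1, a pseudo-response regulator that represses CCA1 and LHY, stood at 6.58 and 6.28 FPKM in the replicate 1 libraries, against 53.9, 46.3, 61.99 and 66.9 FPKM in the other 4. ELF4 stood at 5.31 and 5.64 FPKM in the replicate 1 libraries, against 123, 130.1, 145 and 160.2 FPKM in the other 4, the lowest difference of the list at -4.43 ± 0.12 (SE). The other genes lower in replicate 1 were LUX and its homologue BOA, ELF3, the pseudo-response regulators PRR5 and PRR3, the blue-light receptor FKF1 and its partner GI, with differences between -3.85 and -1.36. RVE2 was listed with the morning genes but was lower in replicate 1, at 3.61 and 5.52 FPKM in the replicate 1 libraries, against 10.2, 12.4, 12.8 and 17.9 FPKM in the other 4, a difference of -1.36 ± 0.17 (SE). PRR7, which peaks between the morning and evening genes, stood at 22.3 and 24.3 FPKM in the replicate 1 libraries, against 24.4, 17.97, 25.7 and 30.6 FPKM in the other 4 and overlapped between the groups. RVE4, RVE6 and RVE7 of the morning list and CHE of the evening list were not called (limma adjusted p = 0.0681, 0.445, 0.115 and 0.201). PRR9 was not tested because its mean was below 1 FPKM, at 1.702 and 2.75 FPKM in the replicate 1 libraries, against 0.196, 0.0702, 0.129 and 0.161 FPKM in the other 4. Only in replicate 1 did PRR9 exceed 1 FPKM.

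Genome-wide, clock genes included, 1412 of the 16823 genes differed, which is 8.39% of those tested, with 728 higher and 684 lower in replicate 1. At an unadjusted p under 0.05 the limma fit had 1899 higher and 2478 lower. The differences called were often large. At least 2-fold on this scale were 351 higher and 245 lower genes, at least 4-fold were 72 and 60, and at least 8-fold were 14 and 17. The smallest difference called was 0.467 on the log2 scale, and the median over all genes tested was -0.06 (quartiles -0.28 and 0.17). In all 1412 the replicate 1 value lay outside the range of replicates 2 and 3 in both treatments, which the small p selects for. Over all genes tested 19.1% lay above and 29% below in both. This excess below depended on the scaling. After median-of-ratios scaling more genes lay above than below, and the median difference was -0.007. After quantile scaling more still lay below, with a smaller gap, and the median was -0.016. The counts at unadjusted p are given for unscaled values only. Only 180 of the 1412 were on any of the 31 gene lists used here, and 1232 were on none. The median level over the 6 libraries was 9.75 FPKM for genes called higher, 11.99 FPKM for genes called lower and 5.20 FPKM for all genes tested.

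All 1412 genes had the same sign in both treatments. The control difference and the Pst hrcC difference share no library, and correlated across the 16823 genes at Pearson's r = 0.476 and Spearman's rho = 0.554, which is a description with no p since genes are not independent replicates. Within Pst hrcC the median gene differed by 0.261 and 0.289 (log2, absolute) between replicate 1 and replicates 2 and 3, against 0.195 between replicates 2 and 3. Within controls these values were 0.245 and 0.325, against 0.197. In the plot of the 2 differences the called genes lie in the corners where both treatments have the same sign.

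**Figure D1:**
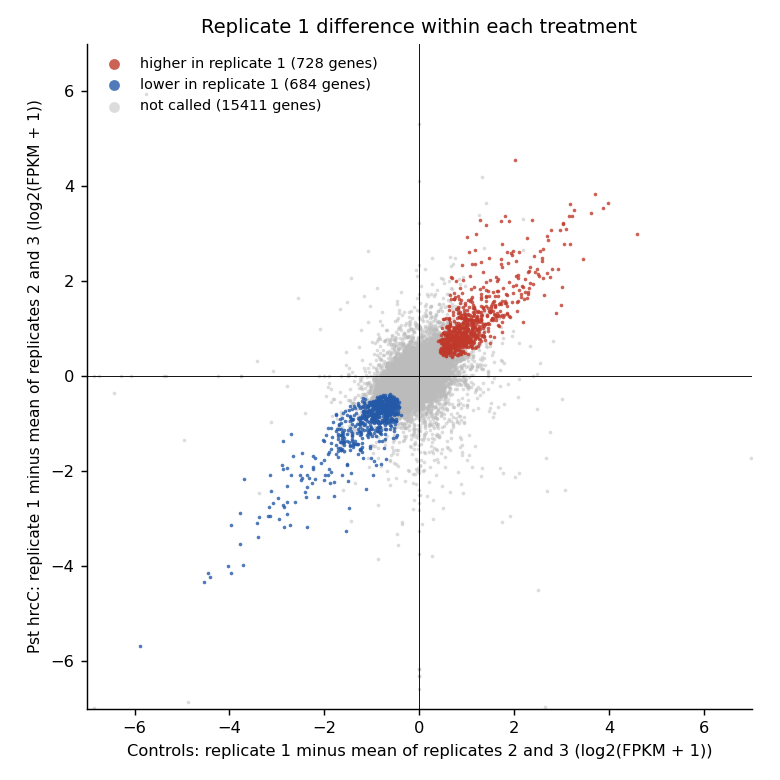
Difference of replicate 1 from the mean of replicates 2 and 3 in log2(FPKM + 1), within controls (horizontal) and within Pst hrcC (vertical), 1 point per gene. The 728 genes called higher lie in the upper right and the 684 called lower in the lower left; 16 genes beyond 7 on either axis, 15 of them not called, are not drawn.

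The number of calls rested on every library. It was 155, 403 and 887 without Pst hrcC replicates 1, 2 and 3, and 248, 649 and 657 without control replicates 1, 2 and 3. Leaving out a replicate 1 library leaves 1 library in that arm, which is then assumed to vary like the others. All 1412 genes kept their direction in the 6 fits, and 122 of them (62 higher, 60 lower) were called in every one, 73 of which are on no list. A gene described as passing without any 1 library is 1 of these 122. A fit with the replicate block called 1274 genes (652 higher, 622 lower), and 1106 of them were shared with the 1412.

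The 12 highest and 12 lowest were taken among called genes that averaged 5 FPKM or more. BBX16 (AT1G73870), a B-box and CCT-domain protein, stood at 23.1 and 32.4 FPKM in the replicate 1 libraries, against 0.676, 1.22, 0.891 and 1.43 FPKM in the other 4, a difference of 3.80 ± 0.18 (SE, limma adjusted p = 0.000451). ELIP2 (AT4G14690), an early light-induced protein of the thylakoid that accumulates under excess light, stood at 10.7 and 39.3 FPKM in the replicate 1 libraries, against 0.310, 0.632, 0.448 and 0.952 FPKM in the other 4 (log2 difference 3.79 ± 0.36 SE, limma adjusted p = 0.00451). ERD9 (AT1G10370), a glutathione S-transferase, stood at 45.04 and 49.1 FPKM in the replicate 1 libraries, against 2.89, 3.59, 2.97 and 3.19 FPKM in the other 4 (log2 difference 3.53 ± 0.13 SE, limma adjusted p = 0.000299). In each of these genes the lower replicate 1 value was several times the highest of the other 4. AT5G48490, of the lipid-transfer protein family, was the most abundant of the 12 highest at 337 and 344 FPKM in the replicate 1 libraries, against 26.6, 25.9, 45.1 and 30.6 FPKM in the other 4. BBX28, another B-box protein, differed by 3.29, COL2, a CONSTANS-like protein, by 2.98, AT3G56290, a potassium transporter by its RefSeq name, by 3.09, and AT1G13650 and AT1G65490, both uncharacterized, by 3.71 and 3.26 (limma adjusted p from 0.000352 to 0.00153). AT5G38910, a germin-like cupin, stood at 24.4 and 8.73 FPKM in the replicate 1 libraries, against 0.183, 0, 1.52 and 1.32 FPKM in the other 4 (limma adjusted p = 0.0216), and 1 of its values is listed at 0. Together with CCA1 and LNK2 these are the 12 highest, of which AT5G38910 did not pass without Pst hrcC replicate 2 or control replicate 3 and the 11 others passed without any 1 library.

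Of the 12 lowest, AT1G07050, a protein with a CCT domain like that of CONSTANS, stood at 0.368 and 0.310 FPKM in the replicate 1 libraries, against 72.2, 66.8, 78.2 and 75.04 FPKM in the other 4, a difference of -5.79 ± 0.11 (SE, limma adjusted p = 4.79e-05) and the smallest p of all genes tested. JMJD5 (AT3G20810), a JmjC-domain oxygenase with a role in the clock, stood at 0.214 and 0.153 FPKM in the replicate 1 libraries, against 20.4, 23.3, 19.7 and 27.7 FPKM in the other 4 (log2 difference -4.32 ± 0.17 SE, limma adjusted p = 0.000352). GRP7 (AT2G21660), a glycine-rich RNA-binding protein that represses its own transcript, stood at 238 and 249 FPKM in the replicate 1 libraries, against 4511, 3926, 3567 and 4324 FPKM in the other 4 (log2 difference -4.06 ± 0.16 SE, limma adjusted p = 0.000352). GRP7 was among the abundant transcripts outside replicate 1, and no library of replicate 1 came near the other 4. AT5G23240 and AT1G56300, both with a DnaJ domain, differed by -4.30 and -3.40, COR27, a cold-regulated gene of the clock, by -4.01, COL9, a CONSTANS-like repressor of flowering, by -3.66, and DRM2, of the dormancy-associated family, by -3.55 (limma adjusted p from 0.000214 to 0.00154). Together with ELF4, FKF1 and BOA they passed without any 1 library. AT1G07901, a short uncharacterized gene, was listed at 0 in both replicate 1 libraries, against 474, 1263, 136 and 1970 FPKM in the other 4 (limma adjusted p = 0.00699), and was not called without either replicate 1 library.

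**Figure D2:**
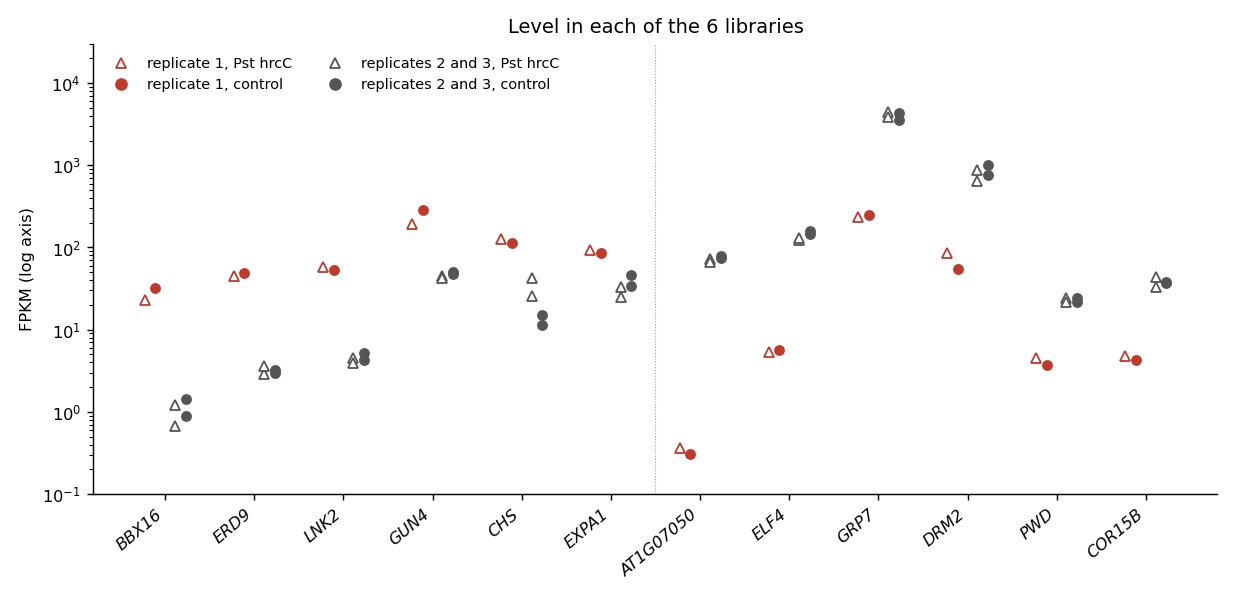
FPKM (log axis) of 12 genes in each of the 6 libraries, replicate 1 on the left of each gene and replicates 2 and 3 on the right, with triangles for Pst hrcC and circles for controls. In the 6 genes left of the dotted line both replicate 1 values lie above the other 4, and in the 6 right of it both lie below them.

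Several of the 122 genes that passed without any 1 library are on no list and were chosen after their values were seen. GLK2 (AT5G44190), a transcription factor that drives genes of the chloroplast, stood at 31.1 and 41.3 FPKM in the replicate 1 libraries, against 5.899, 6.27, 5.57 and 5.65 FPKM in the other 4. CIPK20 (AT5G45820), a kinase of calcium signalling, stood at 22.1 and 25.5 FPKM in the replicate 1 libraries, against 1.598, 1.17, 3.71 and 4.61 FPKM in the other 4. MIPS1 and MIPS2, which make the precursor of inositol, differed by 1.59 and 1.85, FADA, a desaturase, by 2.34, JAC1, needed for chloroplast movement, by 2.08, and NDA1, an alternative NADH dehydrogenase, by 2.64. These 7 were higher in replicate 1 (limma adjusted p from 0.000879 to 0.00252). Lower were GER3 (AT5G20630), a germin, at 156 and 162 FPKM in the replicate 1 libraries, against 792, 792, 819.8 and 867 FPKM in the other 4, and THIC (AT2G29630), the enzyme that makes the pyrimidine part of thiamin, at 23.8 and 25.9 FPKM in the replicate 1 libraries, against 104, 86.8, 122 and 131 FPKM in the other 4. RIBA2 of riboflavin synthesis, the pyruvate decarboxylase PDC2 and ABF1, a factor that binds abscisic acid response elements, were lower, with differences of -2.19, -1.63 and -1.51 (limma adjusted p from 0.000452 to 0.00269 for these 5).

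Promoter sequence was not used to pick the genes, and of the motifs searched the evening element had the most unlike shares in the 2 directions. RefSeq promoters of TAIR10.1 (250 bases before to 50 after the annotated start) were searched on both strands for 8 motifs. The evening element AAAATATCT was in 93 of 680 promoters of genes called lower (13.7%), in 22 of 725 of genes called higher (3.03%), in 3.11% of 16774 promoters of all genes tested and in 2.82% of all 27443 protein-coding promoters. Among genes lower by at least 2-fold it was in 53 of 244 (21.7%). A match is a description of these letters and not evidence that a factor binds there.

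Genes with repeated elements were more often called lower, and in genes called lower the element was densest around the start. Of 26 tested genes with 2 or more evening elements 13 were lower and 1 was higher (50% and 3.85%), of 496 with a single element 80 were lower (16.1%) and of 16252 without one 587 were lower (3.61%). The median difference was -0.70 for genes with 2 or more, -0.17 for those with a single one and -0.06 for those without. Besides GRP7, COR27, FKF1 and JMJD5, the 13 included BBX8, the metallothionein MT2A and the stress-induced gene AT2G15960, with differences of -2.84, -1.78 and -2.37 (limma adjusted p = 0.000352, 0.00687 and 0.00647; chosen after their values were seen). In promoters of genes called lower there were 4.27 elements per 100 promoters in the last 50 bases before the start, against 0.475 for genes not called. The neighbouring bins of genes called lower were close to this, at 3.68 upstream and 3.53 after the start. The 50 bases farthest upstream held 1.18, against 0.442 for genes not called. In the 725 promoters of genes called higher there was 1 element in the last 50 bases (0.138 per 100). The 50 bases farthest upstream held 0.69 per 100 in those genes.

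In genes called lower the other motifs differed less than the evening element from the share over all genes tested. In genes called higher they differed more, since the evening element was at 3.03% there, against 3.11% of all. The CCA1-binding site AAAAATCT was in 7.17% of promoters of genes called higher and 11.2% of those called lower, where all genes tested had 8.16%. The G-box CACGTG was in 12.55% of higher and 10.3% of lower genes, where all had 8.835%, and the core ACGTGT of abscisic acid response elements, which can overlap a G-box, in 19.03% and 16.5%, where all had 13.25%. The GATA-type motif GGATAA was in 15.03% and 19.85%, where all had 15.9%. The telo-box AAACCCTA was in 4.28% and 3.68%, where all had 5.41%. The protein box ATGGGCC was in 7.72% and 7.65%, where all had 10.4%, and the site II motif TGGGCC, which lies within the protein box, in 13.8% and 15.15%, where all had 19.2%.

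**Figure D3:**
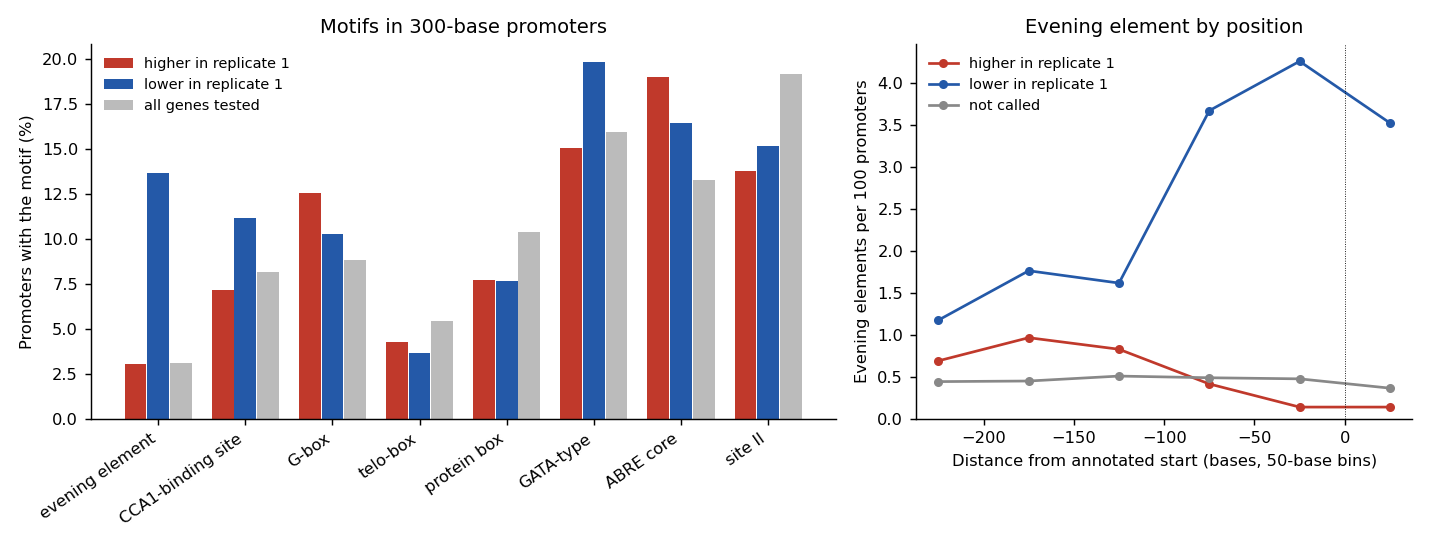
Left, percent of 300-base promoters with each motif for genes called higher, genes called lower and all genes tested; right, evening elements per 100 promoters in 50-base bins by distance from the annotated start. The evening element is at 13.7% in genes called lower against 3.11% of all genes tested, and its density in those genes is highest in the last 50 bases before the start.

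Stretches of 90 bases upstream of the annotated start are shown for genes of both directions, on the strand of the gene and taken from RefSeq TAIR10.1. Capitals mark the evening element, which reads AGATATTTT where it lies on the opposite strand. The first 5 belong to genes lower in replicate 1 that hold it: GRP7 with 3 copies (chr2:9266567-9266656, minus strand), FKF1 (chr1:25508408-25508497, plus strand), TOC1 (chr5:24674767-24674856, plus strand), LUX (chr3:17182944-17183033, plus strand) and PRR5 (chr5:8358689-8358778, minus strand).
GRP7: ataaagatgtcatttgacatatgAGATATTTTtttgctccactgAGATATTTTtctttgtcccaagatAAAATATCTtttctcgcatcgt
FKF1: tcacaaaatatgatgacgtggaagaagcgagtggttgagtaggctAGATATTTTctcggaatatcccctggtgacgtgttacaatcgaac
TOC1: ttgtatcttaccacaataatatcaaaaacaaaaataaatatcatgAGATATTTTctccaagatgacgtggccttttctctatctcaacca
LUX: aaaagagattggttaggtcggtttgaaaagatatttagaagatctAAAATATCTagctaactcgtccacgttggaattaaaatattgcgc
PRR5: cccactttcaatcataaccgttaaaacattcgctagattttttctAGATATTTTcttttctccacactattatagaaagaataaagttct

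These stretches do not stand for all genes of either direction. Over all called genes the G-box was in 12.55% of those higher and 10.3% of those lower. The clock genes counted next are those on which the choice of libraries rested. Of 9 evening clock genes called lower 5 hold an evening element and 2 a G-box (LUX and BOA, which hold both). ELF4, ELF3, PRR3 and GI hold neither in the 300 bases searched, and longer promoters were not searched. Of 8 morning clock genes called higher 7 hold a G-box and none an evening element, but the higher COL2 and BBX24 hold an evening element. GRP7 also holds a G-box. The next 3 belong to clock genes higher in replicate 1 whose promoters hold a G-box and no evening element, with the G-box in capitals: CCA1 (chr2:19245353-19245442, plus strand), LNK3 with 2 copies (chr3:3923314-3923403, plus strand) and LHY (chr1:37907-37996, minus strand).
CCA1: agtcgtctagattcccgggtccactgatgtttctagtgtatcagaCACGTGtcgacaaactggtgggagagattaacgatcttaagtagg
LNK3: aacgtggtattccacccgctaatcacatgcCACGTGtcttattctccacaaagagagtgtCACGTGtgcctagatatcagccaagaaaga
LHY: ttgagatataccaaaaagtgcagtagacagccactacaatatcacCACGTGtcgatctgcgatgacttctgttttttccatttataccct

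Outputs of the clock followed the same split. Their lists were written with earlier results of these data known, so their counts are a description as well. Of all genes tested 4.33% were higher and 4.07% lower, and the counts of each list below stand against these shares. The shares are not matched for level. Of the 1412 called genes 360 averaged under 5 FPKM, while 8641 of the 16823 genes tested averaged at least 5 FPKM. Lists of abundant genes thus stand against shares below those of genes at their level. Of 14 tested dawn outputs 11 were higher and 1 was lower, with a median difference of 1.82. BBX25 (AT2G31380), a B-box protein that restrains light signalling, stood at 13.7 and 13.5 FPKM in the replicate 1 libraries, against 1.45, 1.29, 1.66 and 1.34 FPKM in the other 4 (log2 difference 2.59 ± 0.12 SE, limma adjusted p = 0.000451), and COL1 (AT5G15850), a CONSTANS-like protein, at 24.4 and 22.97 FPKM in the replicate 1 libraries, against 2.37, 2.17, 2.42 and 3.103 FPKM in the other 4 (log2 difference 2.82 ± 0.14 SE, limma adjusted p = 0.000451). Neither gene overlapped between the groups. CDF1, CDF2 and CDF3, DOF factors that repress CONSTANS, SIG5, which carries clock timing to the chloroplast genome, GBSS1, the starch synthase that makes amylose, and CAT2, a catalase, were higher as well, by 1.86, 1.04, 1.86, 2.13, 2.47 and 1.77 (chosen after their values were seen). WNK1, a kinase listed with the dawn outputs, was the 1 lower member (-0.65, limma adjusted p = 0.0279) and was not called after median-of-ratios scaling. The number of dawn outputs called higher was 7, 11 and 11 without Pst hrcC replicates 1, 2 and 3, and 7, 11 and 11 without control replicates 1, 2 and 3.

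Of 13 evening outputs 1 was higher and 7 were lower, with a median of -0.69. After GRP7 and COR27 came COR28, a homologue of COR27, BT2, a BTB and TAZ protein of nutrient signalling, and CAT3, a catalase that peaks opposite to CAT2, with differences of -3.25, -1.93 and -1.61 (chosen after their values were seen). CAT3 stood at 151 and 96.8 FPKM in the replicate 1 libraries, against 480.3, 390.4, 326 and 314 FPKM in the other 4. CAT2 stood at 79.2 and 117 FPKM in the replicate 1 libraries, against 23.8, 23.3, 29.04 and 35.1 FPKM in the other 4, so the catalases differed in opposite directions. BAM9, a catalytically inactive beta-amylase, was the 1 higher member of the list (0.98, limma adjusted p = 0.00712). ZTL, whose protein rather than its transcript is known to cycle, stood at 9.57 and 10.4 FPKM in the replicate 1 libraries, against 11.3, 9.703, 11.2 and 11.9 FPKM in the other 4 and was not called (limma adjusted p = 0.527). Evening outputs called lower numbered 4, 5 and 6 without Pst hrcC replicates 1, 2 and 3, and 4, 6 and 5 without control replicates 1, 2 and 3.

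The B-box and CCT family, a list added after values were seen, split in both directions. Of 33 tested members 7 were higher and 8 were lower, with a median of -0.15. The higher ones were BBX16, BBX28, COL2, COL1, BBX25, BBX24 and COL5, and the lower ones AT1G07050, COL9, BBX8, BBX13, CO, BBX17, AT2G47890 and BBX12. CO (AT5G15840), which sets flowering by day length, stood at 0.576 and 0.471 FPKM in the replicate 1 libraries, against 4.08, 3.01, 3.49 and 3.67 FPKM in the other 4 (log2 difference -1.58 ± 0.15 SE, limma adjusted p = 0.00391). BBX8 stood at 0.768 and 1.05 FPKM in the replicate 1 libraries, against 12.7, 11.6, 12.5 and 13.7 FPKM in the other 4 (log2 difference -2.84 ± 0.12 SE, limma adjusted p = 0.000352). BBX12 (log2 difference -0.72) lost its call in each of the 6 fits that leave out 1 library. Members of the family called higher numbered 5, 6 and 7 without Pst hrcC replicates 1, 2 and 3, and 5, 7 and 7 without control replicates 1, 2 and 3. Those called lower numbered 5, 7 and 7 without Pst hrcC replicates 1, 2 and 3, and 4, 6 and 6 without control replicates 1, 2 and 3. The family held the highest called difference, 3.80, and, AT1G07901 aside, the lowest, -5.79.

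Photosynthesis genes were mostly higher where they were called, but most were not called. Of 21 light-harvesting genes 7 were higher and none lower, with a median of 0.55. LHCB2.2 (AT2G05070) of the photosystem II antenna stood at 1840 and 2305 FPKM in the replicate 1 libraries, against 444, 351, 481 and 449 FPKM in the other 4 (log2 difference 2.26 ± 0.15 SE, limma adjusted p = 0.00125), and LHCB2.1 (AT2G05100), its close copy, at 1337 and 1957 FPKM in the replicate 1 libraries, against 377, 313, 380.5 and 394 FPKM in the other 4 (log2 difference 2.15 ± 0.16 SE, limma adjusted p = 0.00171). LHCB2.3 and LHCB4.3, also of that antenna, were higher by 2.93 and 1.53 (limma adjusted p = 0.00271 and 0.00247; chosen after their values were seen). The LHCB1 and LHCB2 copies are near identical, and how reads were divided between copies is not known. Of 26 photosystem subunits 3 were higher and none lower (median 0.16), with the plastocyanin PETE1 at 0.99 and PSAD2 of photosystem I at 0.71 (limma adjusted p = 0.0135 and 0.0465); PSAD2 was not called after median-of-ratios or quantile scaling or with the replicate block. Of 23 genes of carbon fixation and photorespiration 2 were higher and none lower (median 0.37). These were RCA, the activase of Rubisco, at 1104 and 1185 FPKM in the replicate 1 libraries, against 496, 445, 479.6 and 559 FPKM in the other 4 (log2 difference 1.21 ± 0.14 SE, limma adjusted p = 0.00731), and GLDP1, the glycine decarboxylase P subunit, at 0.99 (limma adjusted p = 0.0318). Light-harvesting genes called higher numbered 3, 4 and 6 without Pst hrcC replicates 1, 2 and 3, and 4, 5 and 5 without control replicates 1, 2 and 3. Photosystem subunits called higher numbered 0, 1 and 1 without Pst hrcC replicates 1, 2 and 3, and 0, 1 and 2 without control replicates 1, 2 and 3. Carbon fixation genes called higher numbered 0, 1 and 2 without Pst hrcC replicates 1, 2 and 3, and 0, 1 and 1 without control replicates 1, 2 and 3. With the replicate block 1 photosystem subunit was higher.

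In chlorophyll synthesis the called genes were mostly higher. Of 23 tested genes 7 were higher and 1 was lower, with a median of 0.25. CAO (AT1G44446), which makes chlorophyll b, stood at 49.4 and 55.0 FPKM in the replicate 1 libraries, against 9.02, 9.52, 9.598 and 10.9 FPKM in the other 4 (log2 difference 2.31 ± 0.11 SE, limma adjusted p = 0.000451). GUN4 (AT3G59400), which activates magnesium chelatase, stood at 194 and 283 FPKM in the replicate 1 libraries, against 45.5, 43.05, 49.9 and 47.7 FPKM in the other 4 (log2 difference 2.31 ± 0.13 SE, limma adjusted p = 0.000783). HEMA1, the first committed step, CHLH, the chelatase subunit that binds porphyrin, and CRD1, the cyclase, were higher by 1.66, 1.46 and 0.98 (limma adjusted p from 0.00237 to 0.0134; chosen after their values were seen). These are steps known to be under light and clock control. Of the light-dependent protochlorophyllide reductases PORC was higher (0.73) and PORB was lower, at 234 and 187 FPKM in the replicate 1 libraries, against 407, 332, 389.9 and 356 FPKM in the other 4 (log2 difference -0.82 ± 0.15 SE, limma adjusted p = 0.0323; both chosen after their values were seen). PORB was not called after median-of-ratios scaling. CHLI1 and CHLD, the other chelatase subunits, were not called (limma adjusted p = 0.135 and 0.788). Chlorophyll genes called higher numbered 3, 5 and 6 without Pst hrcC replicates 1, 2 and 3, and 4, 6 and 6 without control replicates 1, 2 and 3.

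In the plastid isoprenoid and carotenoid pathway, a list added after values were seen, 7 of 22 genes were higher and 1 was lower (median 0.16). BCH2 (AT5G52570), a beta-carotene hydroxylase, stood at 5.73 and 7.73 FPKM in the replicate 1 libraries, against 0.353, 0.471, 0.223 and 0.314 FPKM in the other 4 (log2 difference 2.52 ± 0.17 SE, limma adjusted p = 0.00133). DXS, the entry enzyme, stood at 54.05 and 58.3 FPKM in the replicate 1 libraries, against 31.1, 30.1, 28.1 and 27.5 FPKM in the other 4 (log2 difference 0.92 ± 0.11 SE, limma adjusted p = 0.00992). HDR, the last step of the plastid isoprenoid route, PSY, the first step of carotenoid synthesis, and BCH1 were higher by 1.2, 0.92 and 1.04. All 3 lost their calls without Pst hrcC replicate 2. PSY also lost its call without Pst hrcC replicate 3 and without control replicate 2 or 3. The enzymes of the xanthophyll cycle differed in opposite directions. ZEP, which forms violaxanthin, stood at 16.2 and 29.1 FPKM in the replicate 1 libraries, against 5.27, 6.45, 5.74 and 9.43 FPKM in the other 4 (log2 difference 1.59 ± 0.22 SE, limma adjusted p = 0.0141), and VDE1, which removes its epoxides in strong light, at 18.9 and 18.7 FPKM in the replicate 1 libraries, against 42.6, 35.7, 42.05 and 50.2 FPKM in the other 4 (log2 difference -1.13 ± 0.14 SE, limma adjusted p = 0.0106). In neither gene did the groups overlap. Genes of the pathway called higher numbered 1, 2 and 6 without Pst hrcC replicates 1, 2 and 3, and 1, 5 and 5 without control replicates 1, 2 and 3.

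Of 26 genes of light signalling and photoprotection 7 were higher and 1 was lower, with a median of 0.03. ELIP1 (AT3G22840), the relative of ELIP2, stood at 9.31 and 15.8 FPKM in the replicate 1 libraries, against 1.54, 0.356, 0.762 and 0.353 FPKM in the other 4 (log2 difference 2.96 ± 0.33 SE, limma adjusted p = 0.00743). HYH (AT3G17609), a bZIP factor of light responses, stood at 13.3 and 10.8 FPKM in the replicate 1 libraries, against 2.21, 1.32, 1.54 and 3.19 FPKM in the other 4 (log2 difference 2.13 ± 0.26 SE, limma adjusted p = 0.00992), while its partner HY5 stood at 1.58 and 1.47 FPKM in the replicate 1 libraries, against 3.04, 2.48, 1.97 and 3.51 FPKM in the other 4 and was not called (limma adjusted p = 0.145). SPA1 and SPA3, which act with COP1 to degrade light-signalling factors, and RUP2, which switches off the ultraviolet-B receptor, were higher by 1.02, 1.08 and 1.16. Of the blue-light receptors CRY1 was higher (0.61) and CRY2 lower (-0.54), with limma adjusted p = 0.0413 and 0.0481. CRY2 was not called after median-of-ratios or quantile scaling. Both lost their calls without Pst hrcC replicate 2 or 3 and without control replicate 2 or 3. The genes other than ELIP1 were chosen after their values were seen. The phytochromes PHYA and PHYB were not called (limma adjusted p = 0.767 and 0.986). Light genes called higher numbered 2, 3 and 7 without Pst hrcC replicates 1, 2 and 3, and 1, 3 and 3 without control replicates 1, 2 and 3.

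Of 8 genes of phototropism, a list added after values were seen, 3 were higher and none was lower (median 0.32). RPT2 (AT2G30520), a light-induced partner of the phototropins, stood at 68.3 and 89.5 FPKM in the replicate 1 libraries, against 12.9, 14.02, 15.2 and 15.4 FPKM in the other 4 (log2 difference 2.37 ± 0.11 SE, limma adjusted p = 0.000451), and PKS4 (AT5G04190), a phytochrome kinase substrate, at 9.25 and 10.1 FPKM in the replicate 1 libraries, against 1.2, 1.49, 1.53 and 1.702 FPKM in the other 4 (log2 difference 2.11 ± 0.12 SE, limma adjusted p = 0.000783). Both lay above the other 4 libraries in each treatment. PHOT1 and PHOT2, the receptors, were not called (limma adjusted p = 0.838 and 0.303). Phototropism genes called higher numbered 2, 2 and 3 without Pst hrcC replicates 1, 2 and 3, and 3, 3 and 2 without control replicates 1, 2 and 3.

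Several flavonoid genes were higher in replicate 1. Of 20 tested phenylpropanoid and flavonoid genes 8 were higher and none lower, with a median of 0.56. Chalcone isomerase CHI (AT3G55120) stood at 12.6 and 9.58 FPKM in the replicate 1 libraries, against 3.103, 3.34, 2.78 and 2.93 FPKM in the other 4 (log2 difference 1.57 ± 0.12 SE, limma adjusted p = 0.00209). F3H (AT3G51240), which hydroxylates flavanones, stood at 32.8 and 27.2 FPKM in the replicate 1 libraries, against 5.005, 8.597, 4.03 and 3.92 FPKM in the other 4 (log2 difference 2.33 ± 0.21 SE, limma adjusted p = 0.00353). CHS (AT5G13930), the entry enzyme, and FLS1, which makes flavonols, were higher by 2.45 and 2.03. The anthocyanin enzymes DFR and LDOX were higher by 2.11 and 2.25 (chosen, like CHS and FLS1, after their values were seen). DFR stood at 16.1 and 7.61 FPKM in the replicate 1 libraries, against 3.31, 9.46, 0.252 and 0.115 FPKM in the other 4, so its replicate 1 value was the highest within each treatment but the control value of replicate 1 was below that of Pst hrcC replicate 3. The lignin genes HCT, CCR1 and CAD5 were not called (limma adjusted p = 0.518, 0.175 and 0.103). Phenylpropanoid and flavonoid genes called higher numbered 3, 4 and 9 without Pst hrcC replicates 1, 2 and 3, and 1, 5 and 5 without control replicates 1, 2 and 3, and CHI passed without any 1 library.

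Growth genes of the auxin and phytochrome-interacting factor pathway were higher where they were called. Of 20 tested genes 8 were higher and none lower, with a median of 0.69. SAUR63 (AT1G29440), of the small auxin-up family that promotes cell expansion, stood at 9.64 and 18.4 FPKM in the replicate 1 libraries, against 3.297, 3.495, 4.13 and 4.36 FPKM in the other 4 (log2 difference 1.58 ± 0.16 SE, limma adjusted p = 0.00575), and SAUR62 (AT1G29430), its neighbour, at 22.03 and 22.03 FPKM in the replicate 1 libraries, against 3.93, 6.72, 5.76 and 4.04 FPKM in the other 4 (log2 difference 1.94 ± 0.22 SE, limma adjusted p = 0.0074). EXPA1, an expansin that loosens the wall, stood at 93.4 and 86.5 FPKM in the replicate 1 libraries, against 24.9, 32.8, 45.7 and 33.9 FPKM in the other 4 (log2 difference 1.39 ± 0.21 SE, limma adjusted p = 0.0171), and IAA19, an auxin-induced repressor, differed by 1.11 (both chosen after their values were seen). The groups did not overlap in these 4. The clustered SAUR genes are close copies as well, with the same uncertainty. PIF5, listed with the dawn outputs, was higher by 1.14, and PIF4 was not called at 19.7 and 19.6 FPKM in the replicate 1 libraries, against 24.8, 17.9, 29.4 and 23.7 FPKM in the other 4 (limma adjusted p = 0.42). Growth genes called higher numbered 1, 3 and 5 without Pst hrcC replicates 1, 2 and 3, and 1, 8 and 3 without control replicates 1, 2 and 3.

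**Figure D4:**
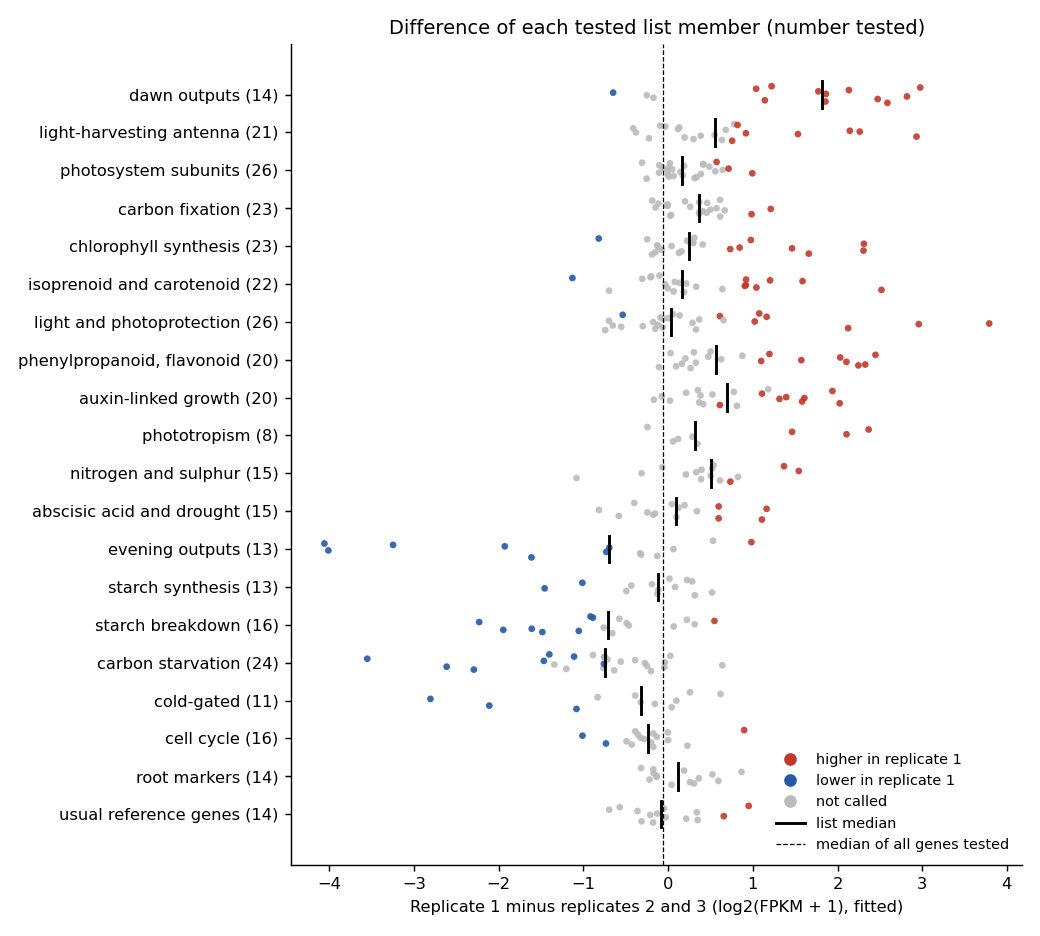
Fitted difference of replicate 1 from replicates 2 and 3 in log2(FPKM + 1) for each tested member of 20 gene lists, with the list median as a bar and the median of all genes tested (-0.06) as a dashed line. Dawn outputs reach the highest list median drawn (1.82), and the evening outputs, starch breakdown and carbon starvation have the lowest (-0.69, -0.71 and -0.75).

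Starch breakdown genes were mostly lower where they were called. Of 16 tested genes 7 were lower and 1 was higher, with a median of -0.71. PWD (AT5G26570), which phosphorylates starch so that amylases can reach it, stood at 4.497 and 3.75 FPKM in the replicate 1 libraries, against 24.6, 21.8, 21.5 and 24.0 FPKM in the other 4 (log2 difference -2.23 ± 0.12 SE, limma adjusted p = 0.000648). PHS2 (AT3G46970), the cytosolic glucan phosphorylase, stood at 2.23 and 2.25 FPKM in the replicate 1 libraries, against 11.4, 12.8, 9.84 and 11.99 FPKM in the other 4 (log2 difference -1.95 ± 0.13 SE, limma adjusted p = 0.00138). No library of replicate 1 reached the level of any other library for either gene. GWD1, which acts before PWD, DPE1, the plastid disproportionating enzyme, and AMY3, an alpha-amylase, were lower, with differences of -1.61, -1.48 and -1.05, and so were PHS1 and ISA3, with -0.89 and -0.92 (limma adjusted p from 0.00374 to 0.0216; chosen after their values were seen). BAM1, a beta-amylase, was the 1 higher member (0.55; not called with the replicate block), and BAM3, the main night-time beta-amylase, stood at 33.7 and 25.5 FPKM in the replicate 1 libraries, against 45.3, 44.5, 46.5 and 40.7 FPKM in the other 4 and was not called (limma adjusted p = 0.0523). Starch breakdown genes called lower numbered 2, 5 and 8 without Pst hrcC replicates 1, 2 and 3, and 2, 6 and 7 without control replicates 1, 2 and 3.

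Of 13 starch synthesis genes 2 were lower and none higher (median -0.12), apart from GBSS1, which was listed with the dawn outputs. The branching enzyme SBE2.1 (AT2G36390) stood at 2.76 and 1.81 FPKM in the replicate 1 libraries, against 8.0, 6.74, 8.69 and 8.41 FPKM in the other 4 (log2 difference -1.46 ± 0.17 SE, limma adjusted p = 0.00846), and SS4, which initiates granules, at 2.94 and 3.55 FPKM in the replicate 1 libraries, against 6.87, 8.62, 7.01 and 7.77 FPKM in the other 4 (log2 difference -1.01 ± 0.14 SE, limma adjusted p = 0.0141). GBSS1 stood at 7.64 and 6.78 FPKM in the replicate 1 libraries, against 0.604, 0.393, 0.446 and 0.465 FPKM in the other 4 (log2 difference 2.47 ± 0.13 SE, limma adjusted p = 0.000636) and thus differed in the direction opposite to SBE2.1 and SS4. Starch synthesis genes called lower numbered 1, 2 and 2 without Pst hrcC replicates 1, 2 and 3, and 0, 2 and 2 without control replicates 1, 2 and 3.

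Genes known to rise when sugar is short were lower where they were called. Of 24 tested carbon starvation genes 8 were lower and none higher, with a median of -0.75. DRM2 (AT2G33830) stood at 84.9 and 54.96 FPKM in the replicate 1 libraries, against 873, 646, 766 and 1002 FPKM in the other 4 (log2 difference -3.55 ± 0.25 SE, limma adjusted p = 0.00154), and DRM1 (AT1G28330), of the same dormancy-associated family, at 61.2 and 38.9 FPKM in the replicate 1 libraries, against 282, 244, 322 and 386 FPKM in the other 4 (log2 difference -2.61 ± 0.25 SE, limma adjusted p = 0.00473). Both passed without any 1 library. The dark-inducible DIN1 and the asparagine synthetase DIN6 were lower, with differences of -2.29 and -1.40. So were AT3G15450, an aluminium-induced protein homologue, and MCCA of leucine breakdown, with -1.47 and -1.11 (limma adjusted p from 0.0123 to 0.0377; chosen after their values were seen). DIN1 stood at 45.5 and 53.1 FPKM in the replicate 1 libraries, against 266, 141, 217 and 438 FPKM in the other 4. BZIP1 and BZIP53, factors of the energy response, were not called (limma adjusted p = 0.931 and 0.858). Carbon starvation genes called lower numbered 2, 3 and 9 without Pst hrcC replicates 1, 2 and 3, and 2, 8 and 5 without control replicates 1, 2 and 3.

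Of 11 tested genes of the cold response 3 were lower and none higher, with a median of -0.32. COR15B (AT2G42530), a chloroplast stroma protein of freezing tolerance, stood at 4.79 and 4.32 FPKM in the replicate 1 libraries, against 44.3, 32.9, 36.8 and 37.97 FPKM in the other 4 (log2 difference -2.81 ± 0.15 SE, limma adjusted p = 0.000571). KIN2 (AT5G15970), another cold-induced protein, stood at 49.6 and 23.98 FPKM in the replicate 1 libraries, against 101, 88.2, 57.4 and 58.99 FPKM in the other 4 (log2 difference -1.08 ± 0.13 SE, limma adjusted p = 0.00965). The groups of each did not overlap. COR414-TM1 of the chloroplast inner membrane was lower (log2 difference -2.11, limma adjusted p = 0.0484; chosen after its values were seen). COR15A, the neighbour of COR15B, overlapped between the groups at 9.74 and 12.01 FPKM in the replicate 1 libraries, against 17.7, 18.3, 8.85 and 15.1 FPKM in the other 4 and was not called (limma adjusted p = 0.406). Cold genes called lower numbered 1, 2 and 3 without Pst hrcC replicates 1, 2 and 3, and 1, 2 and 2 without control replicates 1, 2 and 3, and 2 with the replicate block.

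In nitrogen and sulphur assimilation 3 of 15 genes were higher, among them APR2, which reduces activated sulphate, by 1.37, and RFNR2, a root ferredoxin reductase, by 1.54 (limma adjusted p = 0.0102 and 0.0136). In abscisic acid and drought 4 of 15 were higher, among them ABF3 by 1.11 and ATHB12 by 1.16, both transcription factors of the response (limma adjusted p = 0.00527 and 0.0325). Without Pst hrcC replicate 1 or control replicate 1, 0 genes of either list were called higher. Of 20 genes of touch and rapid responses 3 were higher and 1 lower (15% and 5%), where 4.33% and 4.07% of all genes tested were. TCH2, a calmodulin-like protein, was higher by 1.28 and MYB77, an auxin-linked factor, by 0.84 (limma adjusted p = 0.00992 and 0.0168). Of 9 heat and folding genes 1 was higher, HSP70-4 (0.99, limma adjusted p = 0.0111), and HSP18.2 was not called (limma adjusted p = 0.0639). Neither list had a higher call without either replicate 1 library.

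Of 16 cell cycle genes 1 was higher and 2 were lower (6.25% and 12.5%), where 4.33% and 4.07% of all genes tested were. CDC20.1, an activator of the anaphase-promoting complex, stood at 10.98 and 8.29 FPKM in the replicate 1 libraries, against 21.5, 21.3, 18.3 and 20.15 FPKM in the other 4 (log2 difference -1.01 ± 0.12 SE, limma adjusted p = 0.00789), and the histone gene HIS4 was higher by 0.90 (limma adjusted p = 0.0178). Cell cycle genes called lower numbered 0, 1 and 2 without Pst hrcC replicates 1, 2 and 3, and 0, 1 and 1 without control replicates 1, 2 and 3, and 1 was higher without Pst hrcC replicate 3 and 0 in the other 5 fits. Of 18 aquaporins 2 were higher and 1 was lower (11.1% and 5.56%). PIP2;1 of the plasma membrane differed by 0.86 and TIP1;2 of the vacuole by -0.66 (limma adjusted p = 0.0226 and 0.0333). TIP1;2 was not called after median-of-ratios or quantile scaling or with the replicate block. Aquaporins called higher numbered 0, 0 and 1 without Pst hrcC replicates 1, 2 and 3, and 0, 0 and 1 without control replicates 1, 2 and 3, and none was lower in those 6 fits. Of 312 ribosomal protein genes 28 were higher and 3 were lower (8.97% and 0.962%), with a median of 0.20. AT5G27770, an L22 protein, was higher by 0.68, and AT5G24490, a 30S ribosomal protein by its RefSeq name, was lower, with -1.51 (limma adjusted p = 0.0176 and 0.0156). Ribosomal genes called higher numbered 0, 0 and 7 without Pst hrcC replicates 1, 2 and 3, and 0, 4 and 3 without control replicates 1, 2 and 3, and 12 were higher with the replicate block. Of 14 genes often used as references in transcript assays 2 were higher (14.3%). GAPC1, the cytosolic glyceraldehyde-3-phosphate dehydrogenase, stood at 124 and 114 FPKM in the replicate 1 libraries, against 56.3, 61.9, 67.3 and 59.4 FPKM in the other 4 (log2 difference 0.95 ± 0.12 SE, limma adjusted p = 0.0119), and GAPC2, its copy, differed by 0.66 (limma adjusted p = 0.0241). Reference genes called higher numbered 0, 0 and 2 without Pst hrcC replicates 1, 2 and 3, and 0, 1 and 1 without control replicates 1, 2 and 3. Of 12 shoot markers 1 was lower, the leaf-polarity factor AS1 (-0.77, limma adjusted p = 0.031; not called after median-of-ratios scaling, and called without Pst hrcC replicate 3 but in no other fit that leaves out 1 library), and the stomatal signal EPF1 was not called (limma adjusted p = 0.0608). Of the root markers CASP1 and SHR had the smallest p (limma adjusted p = 0.157 and 0.213).

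Of 17 tested defence genes of salicylic acid and pattern-triggered immunity 2 were higher and none lower, and of 22 jasmonate genes 1 was higher and none lower. These are 11.8% and 4.55% higher, where 4.33% of all genes tested were. PR1 (AT2G14610), a marker of salicylic acid signalling, stood at 5.74 and 1.94 FPKM in the replicate 1 libraries, against 0.126, 0, 0.730 and 0 FPKM in the other 4 (limma adjusted p = 0.039), and is listed at 0 in 2 of the other 4 libraries. NHL10, a pattern-induced gene, stood at 4.47 and 3.13 FPKM in the replicate 1 libraries, against 1.32, 0.729, 1.74 and 1.03 FPKM in the other 4 (log2 difference 1.13 ± 0.23 SE, limma adjusted p = 0.0398). JAZ6 (AT1G72450), a repressor of jasmonate signalling, stood at 38.5 and 6.88 FPKM in the replicate 1 libraries, against 27.3, 26.6, 3.56 and 3.95 FPKM in the other 4 (log2 difference 0.61 ± 0.12 SE, limma adjusted p = 0.0334), and replicate 1 was the highest within each treatment. No call of PR1 or NHL10 held without Pst hrcC replicates 1, 2 or 3 or control replicate 3, NHL10 was also lost without control replicate 1, and JAZ6 was lost in each of the 6 fits. Without control replicate 1, 3 jasmonate genes were called lower. The jasmonate list had a median difference of -0.92 within Pst hrcC and of 0.26 within controls. JAZ2 stood at 15.5 and 3.94 FPKM in the replicate 1 libraries, against 40.2, 51.2, 5.57 and 7.19 FPKM in the other 4 and was not called (limma adjusted p = 0.055).

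Whether the difference of replicate 1 was of another size after Pst hrcC than in controls could be tested only coarsely, since each treatment holds 1 replicate 1 library. A term for the difference between treatments was called for 4 of the 16823 genes (0.0238%), and 765 had an unadjusted p under 0.05 in limma. None of the 1412 genes was among the 4. All 4 are listed at 0 in at least 4 of the 6 libraries, so they have no usable fold change. A p that misses the threshold does not show that the differences were alike: for ELIP2 the term was -1.58 (limma adjusted p = 0.877) and for AT5G38910 it was 2.54 (0.321). For VSP1, which had the largest such difference on the jasmonate list, limma adjusted p for the term was 0.207.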

How the data were processed

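The authors deposited 1 table of FPKM values per gene for the 6 libraries. Per the submitters' processing notes, the tools were Cufflinks 2.2.1, TopHat2 2.1.1 and FastQC, and the build was TAIR10, with no role given for each. The annotation and strand setting were not given in the sources used here. Read totals were not used, so depth is known only in relative terms (from the smallest nonzero values of genes of at least 1200 bases) and no counting interval is given. Of 27371 identifiers 210 of organelles were left out, and 16823 of 27161 nuclear genes averaged at least 1 FPKM. FPKM holds no counts, so limma 3.58.1 (R 4.3.3) was fitted to log2(FPKM + 1) with an intensity trend, treatment and replicate 1 as terms and 3 residual degrees of freedom; the term for a difference between treatments left 2. All tests were two-sided, and p-values were adjusted over all genes tested, with a threshold of 0.05. The fit was tested on 5 simulated sets with 200 changed genes each. It recovered 47.6% of 2-fold and 85.6% of 4-fold changes on the log2(FPKM + 1) scale. On average 6.6 of 169.8 calls were false. The simulated noise was independent between libraries, so the sets cannot show what a shift shared by same-numbered libraries does to the p-values.

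Genes named by rule were the 12 highest and 12 lowest called differences (mean of at least 5 FPKM, outside the range of replicates 2 and 3 in both treatments), the 2 smallest p of each list, all core clock genes and the 3 smallest p of the term between treatments. The members and lists were chosen with earlier results of these data known, and 3 lists were added after values were seen. RefSeq TAIR10.1 gave names (26703 identifiers, 97.6%), promoters and coordinates; the deposited table holds none. 1 promoter sequence is not reported here. Same-numbered libraries deviated together from their treatment means (r across genes of 0.476, 0.216 and 0.168 for replicates 1, 2 and 3). Deviations from a mean of 3 libraries are tied to each other. A shift shared by the replicate 1 libraries alone thus also makes replicates 2 and 3 deviate together, so their values show no pairing of their own. The labels state no pairing. Alternatives were other pseudocounts, filters and scalings, the replicate block, no treatment term, no trend, array weights and leaving out each library.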

Additional observations from a re-analysis of the deposited data

Results flagged for a closer look

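The term between treatments in limma was called for 4 genes, all uncharacterized. Each is listed at 0 in most libraries. AT2G11522 is listed at 0 in every library except control replicate 1, at 29690 FPKM (Pst hrcC minus control difference -14.8579, limma adjusted p = 0.000146). AT2G23321 is likewise listed at 0 except in control replicate 1, at 17810 FPKM (-14.1204, limma adjusted p = 0.000146). AT3G04184 is listed at 0 in the 3 Pst hrcC libraries and in control replicate 1, with 38.7 and 42.7 FPKM in control replicates 2 and 3 (5.3791, limma adjusted p = 0.0223). AT5G44306 is listed at 0 except in Pst hrcC replicate 1, at 39.1 FPKM (5.3239, limma adjusted p = 0.0278). These differences are on the log2(FPKM + 1) scale and depend on the pseudocount. Replicate 1 is 1 library per treatment. In AT2G11522, AT2G23321 and AT5G44306 replicates 2 and 3 are all listed at 0, so their p-values measure no spread of their own. Whether the replicate 1 difference of the 4 genes depends on treatment cannot be told from them.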

How the results depend on the processing

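The number of genes called depended most on the libraries kept. Leaving out 1 library at a time gave 155 to 887 called genes, 80 to 509 higher and 75 to 378 lower, in place of 1412, 728 and 684, while all 1412 kept their direction in the 6 fits. Without a filter on low values 857 genes were called, 367 of them lower. With a pseudocount of 0.1 the term between treatments was called for 2 genes in place of 4. Under the pseudocounts of 0.1 and 5, the filter at 5 FPKM, median-of-ratios and quantile scaling, the restriction to genes of 300 bases or more, no treatment term, no trend and array weights, the count of called genes stayed between 1093 and 1936. No called difference of a gene named by rule changed its sign under any alternative run. Of the list medians printed, 3 changed sign under some alternative. Starch synthesis was -0.12 as reported, 0.05 with the filter at 5 FPKM and 0.01 with no filter. Light signalling and photoprotection was 0.03 as reported, -0.02 with the filter at 5 FPKM and -0.03 without control replicate 3. Photosystem subunits were 0.16 as reported and -0.02 without Pst hrcC replicate 1. Median-of-ratios scaling called 944 higher and 628 lower (60.05% higher, where the unscaled values gave 51.56%). It also turned the excess of genes below the range of replicates 2 and 3 in both treatments into an excess above. With the replicate block 1274 genes were called, and 1106 of them were shared with the 1412. The block takes out the difference between replicates 2 and 3. It cannot measure the spread between replicate numbers, since replicate 1 is a single number. What any pairing of same-numbered libraries does to the p-values was therefore not tested. Among genes named by rule PSAD2 and TIP1;2 lost their calls under the block. Of the lists, ribosomal proteins then had 12 higher in place of 28, photosystem subunits 1 in place of 3, aquaporins 1 in place of 2, and starch breakdown 0 in place of 1. Touch genes had 2 higher in place of 3 and flavonoid genes 7 in place of 8, while cold genes had 2 lower in place of 3, carbon starvation genes 7 in place of 8, ribosomal proteins 2 in place of 3 and aquaporins 0 in place of 1. Heat, isoprenoid, and nitrogen and sulphur genes gained 1 higher each. The depth of control replicate 1 and of Pst hrcC replicate 3 was the lowest of the 6 libraries, and the precision at low FPKM is limited there. The cause of these dependences was not tested.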
